A study of Mus musculus with 6 samples.

Results

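Cytosolic ribosomal protein genes were taken by symbol: those starting with Rpl or Rps and a digit, plus Rpsa and Rplp0 to Rplp2, without the Rps6k kinases and without symbols marked as pseudogenes by the ending -ps. The array held 96 probes of 65 such genes among its 45281 probes, and every probe was followed singly. Of these genes 33 encode proteins of the large subunit and 23 of the small subunit. A further 7 are paralogs, genes closely related to a subunit gene, and 1 is a retroposed gene, Rps23rg1. Rps19bp1, which the symbol rule also takes in, encodes a protein that binds a ribosomal protein and is no subunit of the ribosome. RefSeq annotates 64 of the 65 as protein coding and Rps4l as a transcribed pseudogene. It holds 89 protein-coding genes that meet the rule, of which 64 had a named probe.

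The study set cells from mice of the OG2 strain side by side on 6 bead arrays, 2 per group. OG2 mice carry a transgene in which Pou5f1 control sequences drive green fluorescent protein, so all 3 groups share it. HF arrays held RNA from hair follicles of dorsal skin at 2 months of age, HFGSC arrays RNA from germline stem cells derived from such follicles at 4 months, and GSC arrays RNA from germline stem cells of the testis at 3 months. Age and cell source cannot be told apart in any comparison. The labels do not say whether the 2 arrays of a group stem from separate cultures or mice, and the p-values therefore reflect spread between samples that may be technical.

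Cytosolic ribosomes are built from a small subunit, which decodes the messenger RNA, and a large subunit, which joins amino acids and passes the growing chain through an exit tunnel. Each subunit protein is needed in about equal number, and its messenger RNA typically starts with a C inside a run of pyrimidines (the terminal oligopyrimidine or TOP motif) through which mTOR signalling adjusts its translation. Several mammalian ribosomal protein genes have a paralog that is used in particular tissues: Rpl39l in the testis in place of the X-linked Rpl39, and Rpl3l in striated muscle in place of Rpl3. X-linked genes are silenced in male germ cells during meiosis, a setting in which autosomal copies of ribosomal protein genes are known.

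Promoters of paralog and parent genes that passed the test against HF are shown because the results turn on these genes, with the exception of Rps4l, whose window was not used here. The sequences are those of RefSeq on GRCm38.p6, from 150 bases before to 30 bases after the annotated start, 5′ to 3′ on the strand of the gene. For each gene only its outermost annotated start is shown, and windows at any other start may hold other matches. Capitals mark CCGGAAG (the core bound by ETS factors), GGGCGG (Sp1), TATAAA (the TATA box) and AAGATGG (YY1), each on either strand, and pyrimidine tracts, here a C followed by at least 7 C or T on the gene's strand within 50 bases of the start. Rps4x lies at chrX:102189362-102189541 (minus strand), Rps27l at chr9:66945936-66946115 (plus strand), Rpl39 at chrX:37085193-37085372 (minus strand), Rpl39l at chr16:10170078-10170257 (plus strand) and Rpl3l at chr17:24727676-24727855 (plus strand).
Rps4x: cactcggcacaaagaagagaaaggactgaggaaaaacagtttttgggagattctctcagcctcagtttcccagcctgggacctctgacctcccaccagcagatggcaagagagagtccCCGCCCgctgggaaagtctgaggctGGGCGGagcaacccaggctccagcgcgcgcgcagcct
Rps27l: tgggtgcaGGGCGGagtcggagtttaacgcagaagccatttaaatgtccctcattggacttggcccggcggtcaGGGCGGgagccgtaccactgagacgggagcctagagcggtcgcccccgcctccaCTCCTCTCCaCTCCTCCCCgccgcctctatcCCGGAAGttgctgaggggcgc
Rpl39: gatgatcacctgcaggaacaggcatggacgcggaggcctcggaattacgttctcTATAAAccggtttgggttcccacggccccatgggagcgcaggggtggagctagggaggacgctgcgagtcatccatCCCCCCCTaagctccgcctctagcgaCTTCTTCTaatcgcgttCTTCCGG
Rpl39l: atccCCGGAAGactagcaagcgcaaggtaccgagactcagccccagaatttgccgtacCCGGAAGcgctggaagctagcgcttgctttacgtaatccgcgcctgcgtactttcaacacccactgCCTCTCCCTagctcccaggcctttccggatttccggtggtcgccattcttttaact
Rpl3l: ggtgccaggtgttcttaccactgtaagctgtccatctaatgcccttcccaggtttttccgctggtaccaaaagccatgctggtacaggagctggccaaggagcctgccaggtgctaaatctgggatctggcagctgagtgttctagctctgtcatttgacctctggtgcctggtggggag
These letters are matches only, and the window of Rpl3l held none of them. Windows from 250 bases before to 50 bases after the start were found for 54 of the 65 genes. Among the 54 windows of 46 subunit genes, 77.8% held a pyrimidine tract, against 28.8% of all 32851 promoters. The ETS core was in 40.7% of them against 8.86%, the Sp1 letters in 63% against 35.7%, the YY1 letters in 13% against 6.34% and the TATA letters in 9.26% against 13.6%. The 8 windows of 6 paralog genes held a pyrimidine tract in 62.5%, the ETS core in 25%, the Sp1 letters in 50%, the YY1 letters in 12.5% and the TATA letters in 12.5%. Some genes contribute several windows, which overlap.

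Signal is given as normalized log2 intensity, after background correction and quantile normalization. A probe was tested when some group had it detected on both of its arrays, which means a detection p-value below 0.05. Of the 96 probes 80, covering 59 genes, were tested, among 19715 tested probes in all. On all 6 arrays 74 of the 80 were detected. The number of detected probes lay between 16094 and 16593 on the HF arrays and between 18772 and 19552 on the others. Germ cell markers were detected on both arrays for 1 of 8 genes in HF and for 8 of 8 in HFGSC and in GSC. Of 6 basal keratinocyte and bulge markers only Cd34 was detected on both arrays of a group, and Krt5, Krt14, Krt15 and Trp63 were detected on none of the 6 arrays, although the HF samples are labelled as hair follicle. Fibroblast markers were detected on both arrays for 3 of 8 genes in HF, 7 in HFGSC and 6 in GSC, and their summed intensity was 35833 to 42369 in HF, 29533 to 67816 in HFGSC and 24117 to 25475 in GSC. Sertoli cell markers were detected for 2 of 4, 3 of 4 and 2 of 4 genes in the same order, with a summed intensity of 5416 to 5551 in HF, 7178 to 14219 in HFGSC and 4011 to 5069 in GSC. Of their 4 tested probes 2 were higher and 1 lower in HFGSC against HF, 0 passed in GSC against HF, and 1 was higher in HFGSC against GSC. Leukocyte and erythroid markers were detected for none. The part of cell mixture in the results below was not tested, and in bulk samples fewer cells of a type and less RNA per cell cannot be told apart.

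Ribosomal protein probes were among the brightest on every array. Of the 80 tested probes 32 had a mean of 15 or more over the 6 arrays, out of 148 such probes on the whole array, 23 had a mean from 12 to below 15 and 25 a mean below 12. Rps29, of the small subunit, read between 15.997 and 16.06 on every array, and Rplp1, of the stalk that recruits elongation factors, between 15.97 and 16.06. The highest value of any probe was 16.06 on each array. The summed raw intensity of all 96 probes made up 4.80% and 5.11% of the total in HF, 4.45% and 4.00% for HFGSC and 4.05% and 4.47% for GSC.

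**Figure D1:**
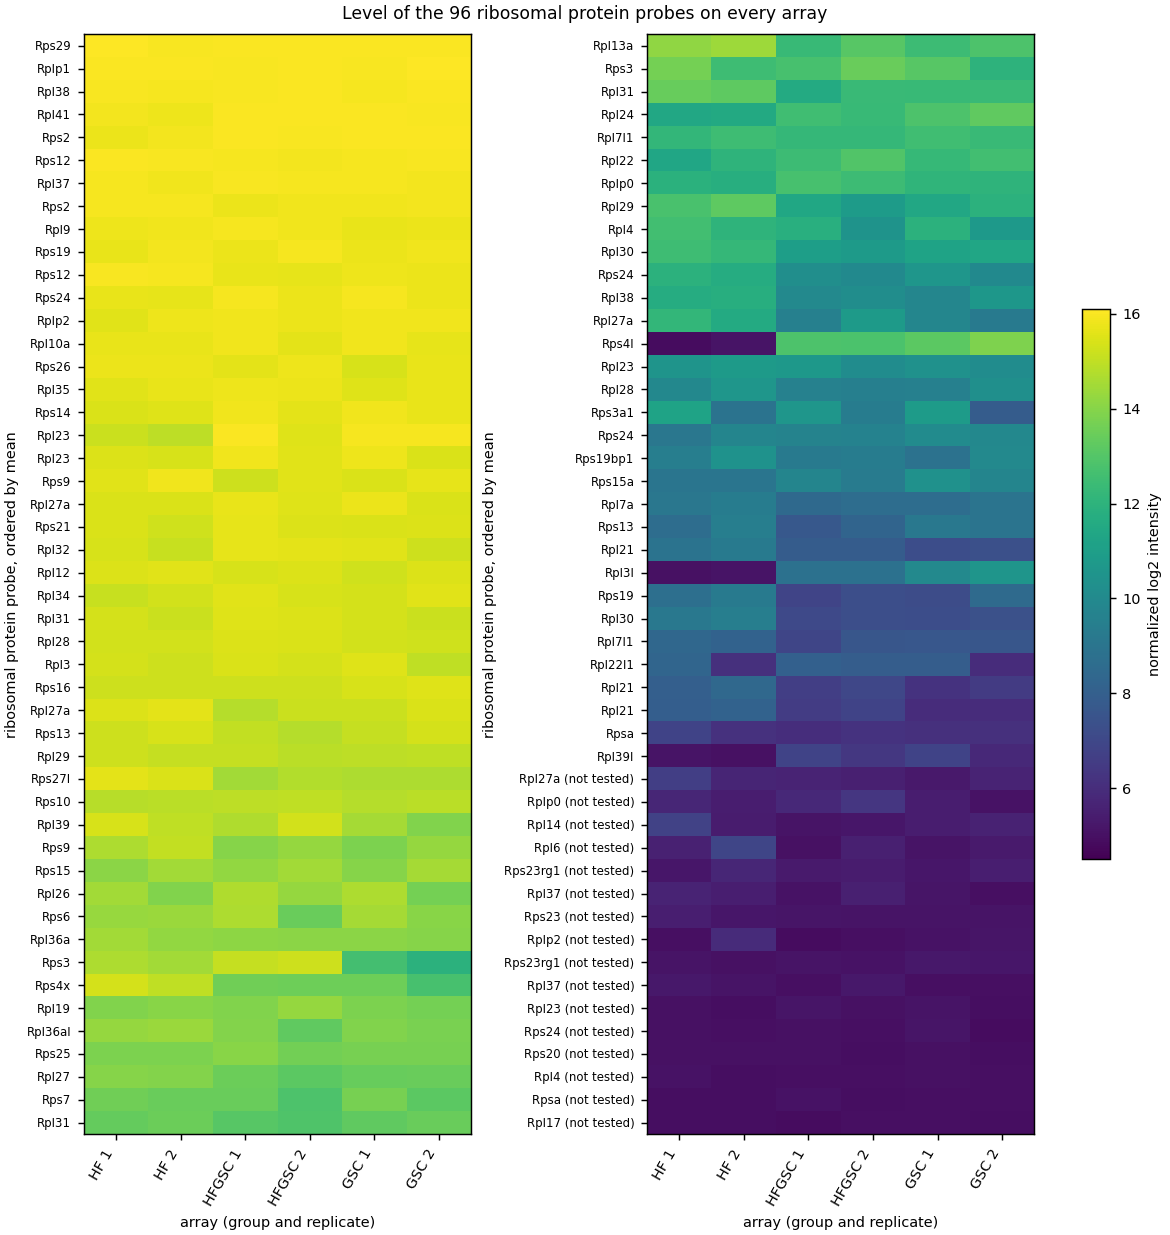
Normalized log2 intensity (colour scale) of the 96 ribosomal protein probes (rows, ordered by mean) on the 6 arrays (columns). Most bright rows keep 1 colour across all arrays, while Rps4l and Rpl3l are dark on the HF arrays and bright on the others, and the 16 probes that were not tested lie at the bottom right.

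HFGSC and GSC were each compared with HF, which the study's design names as the reference, and with each other. Rps4l, Rpl3l, Rpl39l and 1 probe of Rpl23 were higher in both kinds of germline stem cell than in HF. Rps4x, Rps27l, Rpl13a, Rpl30 and individual probes of Rpl21, Rpl29, Rpl38 and Rps24 were lower in both. In HFGSC against HF, 4 of the 80 member probes were higher and 10 lower at an adjusted p under 0.05 (limma, Benjamini-Hochberg over all 19715 tested probes). Over all tested probes 13.4% were higher and 9.1% lower, 22.5% in all, so the members' share of 17.5% in all was not above the background. By direction 5% of the members were higher and 12.5% lower, and no test compared these shares. In GSC against HF, 5 were higher (6.25%) and 15 lower (18.8%), 25% of the members, against 15.7% higher, 12% lower and 27.7% in all over all probes. In HFGSC against GSC, 1 of the 80 was higher and 0 lower, against 0.132% and 0.193% of all probes, 0.325% in all. Both comparisons with HF use the same 2 HF arrays, so their results are not separate evidence. Of the 35 calls, 6 held in every alternative setting run for them (Rps4l and Rpl3l in both comparisons with HF, Rps4x and Rps3 in GSC). The other calls were lost without some 1 array. Leaving out an array of the compared groups leaves 1 in its group, and fewer of all tested probes passed then too. A lost call therefore does not show that 1 array carried it.

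The median log2 difference of the 80 probes was -0.06 in HFGSC against HF, where all tested probes had -0.07. It was -0.09 in GSC against HF, where all probes had -0.02, and 0.01 in HFGSC against GSC, where all probes had -0.03. Differences smaller than 0.5 were found for 46, 50 and 64 of the 80 probes in the same order, and differences of 1 or more for 18, 18 and 4. With each array scaled by its median in place of quantile normalization, the members' median became -0.48 in HFGSC against HF and -0.42 in GSC against HF, while that of all probes became 0.10 and 0.15. Whether the family as a whole lay below HF therefore depends on the scaling. With the replicate number as a block, 8 members were higher and 20 lower in HFGSC against HF, 35% in all, against 22.2% higher, 21.4% lower and 43.6% in all over all probes. In GSC against HF the block gave 7 higher and 19 lower members, 32.5% in all, against 25%, 23.2% and 48.2% of all probes. Between HFGSC and GSC 1 member was higher (1.25%), against 0.588% higher, 0.624% lower and 1.21% in all over all probes.

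Members that passed with the block alone are given with that value where they are described, apart from probes of Rpl4, Rpl27, Rpl32, Rps13 and Rps19. The dimmer Rps19 probe, ILMN_2754355, differed by -1.92 in HFGSC (adjusted p = 0.0584, or 0.00568 with the block) and -1.17 in GSC (0.19, or 0.0336). The brighter Rps19 probe, ILMN_2862280, differed from HF by 0.03 and 0.004 and did not pass. Rpl4, which reaches into the exit tunnel, differed by -1.17 (adjusted p = 0.18, or 0.0105 with the block) and -0.94 (0.258, or 0.0218). Rpl27 differed by -0.63 (adjusted p = 0.0749, or 0.0231 with the block) and -0.54 (0.106, or 0.0379). In HFGSC alone the block added the dimmer Rps13 probe, ILMN_2482591, at -1.06 (adjusted p = 0.191, or 0.0484), and Rpl32, at 0.39 (0.156, or 0.0456). The brighter Rps13 probe, ILMN_2940017, differed by -0.39 in HFGSC and did not pass.

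Members of different brightness differed in how often they passed. These classes were chosen after the values had been seen. Of the 32 brightest members 1 passed in HFGSC against HF (3.12%, against 8.11% of all probes as bright), and their differences lay between -0.58 and 0.71. In the middle class 4 of 23 passed (17.4%, against 20.1%), and below 12 it was 9 of 25 (36.0%, against 22.9%). In GSC against HF the counts were 1 of 32 (3.12%, against 14.9%), 7 of 23 (30.4%, against 27.2%) and 12 of 25 (48.0%, against 27.9%). The bright members lay within about 1 log2 unit of the top of the scale, and the part of this limit in their small differences was not tested.

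**Figure D2:**
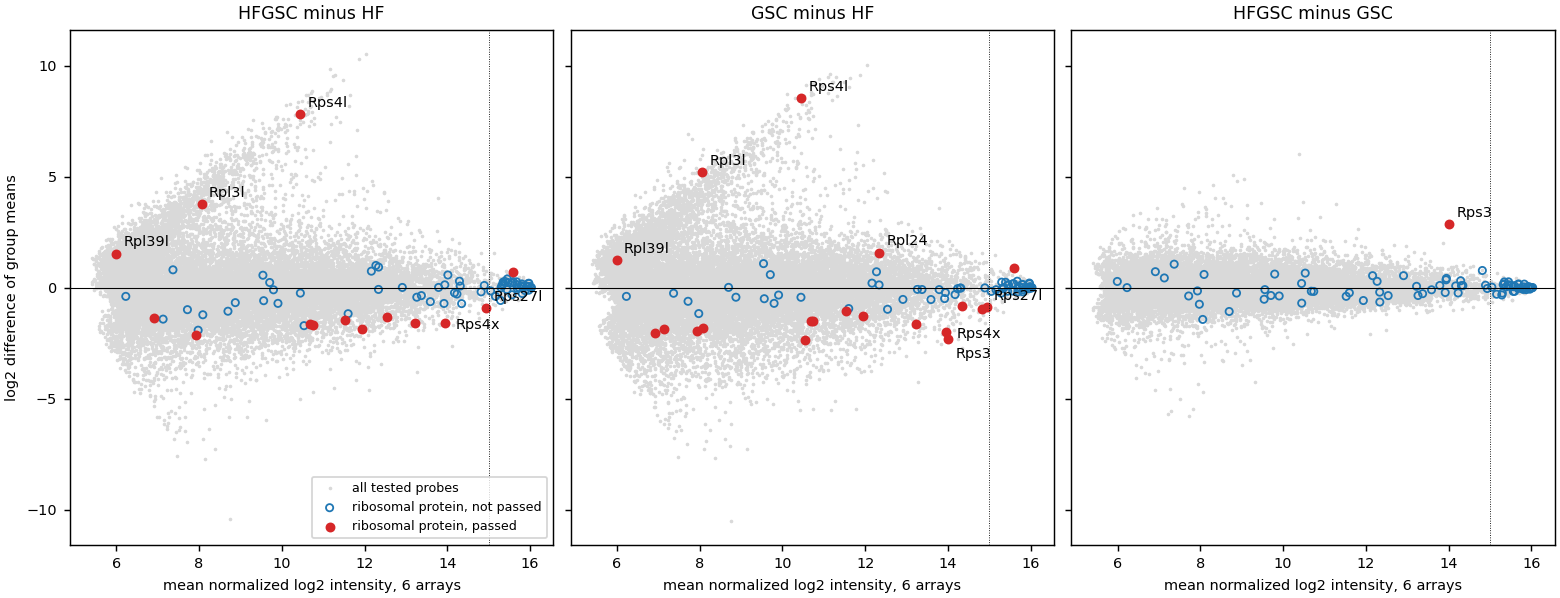
Log2 difference of group means against the mean normalized log2 intensity over 6 arrays, for all 19715 tested probes (grey) and the 80 ribosomal protein probes (red when they passed, open blue when not); the dotted line marks a mean of 15. Bright members cluster at a difference of 0 in each panel, and among the members Rps4l lies highest, at 7.82 in HFGSC and 8.52 in GSC against HF.

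Among the members Rps4l changed most. It is named for its likeness to Rps4x, the X-linked gene of small-subunit protein eS4. The Rps4l probe read 4.88 and 5.12 on the 2 HF arrays, where it was not detected, 12.85 and 12.80 on those of HFGSC and 13.20 and 13.85 on those of GSC. The germline groups did not overlap HF and lay close together. Rps4l was at least 83.1-fold higher in HFGSC than in HF (log2 difference 7.82, SE 0.41, adjusted p = 0.00013, limma) and at least 135-fold higher in GSC (8.52, SE 0.41, adjusted p = 9.25e-05), each bound being taken against the lowest detected signal of the HF arrays. The difference of HFGSC from GSC was -0.70, with a 95% interval from -1.65 to 0.25 (adjusted p = 0.884). Both calls against HF held in each of the 15 alternative settings run for them, including those without any 1 array.

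Rps4x went the other way. Its probe read 15.33 and 14.97 on the 2 HF arrays, 13.56 and 13.54 on those of HFGSC and 13.53 and 12.74 on those of GSC. Every germline array lay below both HF arrays. Rps4x was 3.03-fold lower in HFGSC than in HF (log2 difference -1.60, SE 0.29, adjusted p = 0.00891) and 4.04-fold lower in GSC (-2.01, SE 0.29, adjusted p = 0.00317). The HFGSC call was lost without HF replicate 1 (adjusted p = 0.0617), and the GSC call held in each of 16 settings. Which transcripts each of the Rps4l and Rps4x probes reads was not tested, since probe sequences were not used here. Rps4x was also 1 of 3 X-linked members tested: 1 of the 3 was lower in HFGSC and 2 in GSC, the second being Rpl39, and Rpl36a differed by -0.24 and -0.31 without passing.

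Rpl3l, the striated-muscle paralog of Rpl3, was higher in both kinds of germline stem cell. Its probe read 5.02 and 5.13 on the 2 HF arrays, where it was not detected, 8.84 and 8.83 on those of HFGSC and 9.97 and 10.56 on those of GSC. Rpl3l was at least 5.23-fold higher in HFGSC (log2 difference 3.76, SE 0.49, adjusted p = 0.00249) and at least 14.1-fold higher in GSC (5.19, SE 0.49, adjusted p = 0.000716), and both calls held in each of 15 settings. Between HFGSC and GSC the difference was -1.43 (95% interval -2.57 to -0.29, adjusted p = 0.558), with both GSC arrays above both HFGSC arrays. Rpl3 itself, a protein near the catalytic centre of the large subunit, read 15.36 and 15.24 (HF), 15.46 and 15.33 (HFGSC) and 15.54 and 14.98 (GSC). Its difference from HF was 0.10 (95% interval -0.38 to 0.57) in HFGSC and -0.04 (-0.51 to 0.43) in GSC.

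Rpl39l, the testis paralog, lay near the detection limit. Its probe read 5.09 and 5.04 on the 2 HF arrays, 6.83 and 6.36 on those of HFGSC and 6.82 and 5.82 on those of GSC. It was detected on both HFGSC arrays, on 1 GSC array and on no HF array. Rpl39l was at least 1.11-fold higher in HFGSC than in HF (log2 difference 1.53, SE 0.38, adjusted p = 0.0287), and in GSC the log2 difference was 1.25 (SE 0.38, adjusted p = 0.0482). The GSC mean of 6.32 lay below the weakest detected signals of the HF arrays, 6.39 and 6.504, so that no fold above 1 can be given there. The HFGSC call was lost without HF replicate 1, HF replicate 2 or HFGSC replicate 1 (adjusted p from 0.0913 to 0.124). The GSC call was lost without HF replicate 1, HF replicate 2, HFGSC replicate 2 or GSC replicate 1 (adjusted p from 0.0595 to 0.185). Both calls were also lost with median scaling, with no filter on detection and without the mean-variance trend of the test, and that in GSC with an offset of 50, where its log2 difference was 0.77. Over all settings the differences went down to 0.82 in HFGSC and 0.70 in GSC. Its X-linked parent Rpl39, a small protein of the exit tunnel, read 15.39 and 15.01 (HF), 14.70 and 15.32 (HFGSC) and 14.55 and 13.92 (GSC). Only GSC lay below HF on both arrays, by 1.95-fold (log2 difference -0.96, SE 0.29, adjusted p = 0.0462), a call that was lost without either HF array or GSC replicate 2 (adjusted p from 0.081 to 0.219), with no filter on detection, with detection required on all 6 arrays, and without the trend. In HFGSC the difference was -0.19 (95% interval -0.87 to 0.49), and the difference of HFGSC from GSC was 0.77 (0.09 to 1.46, adjusted p = 0.646).

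Rps27l, a small-subunit paralog known in human cells as a target of p53, was lower in both germline groups. It read 15.60 and 15.46 (HF), 14.48 and 14.75 (HFGSC) and 14.65 and 14.65 (GSC), with no overlap between HF and the others. The decrease was 1.89-fold in HFGSC (log2 difference -0.92, SE 0.16, adjusted p = 0.00833) and 1.84-fold in GSC (-0.88, SE 0.16, adjusted p = 0.00835). Without HF replicate 1 both calls were lost (adjusted p = 0.0814 and 0.0815), and without HF replicate 2 that in HFGSC (adjusted p = 0.0523). Without the mean-variance trend both were lost as well.

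The other paralogs did not pass. Rpl36al read 14.28 and 14.36 (HF), 13.97 and 13.25 (HFGSC) and 13.89 and 13.76 (GSC), and its differences from HF were -0.71 (adjusted p = 0.0953, or 0.0326 with the replicate block) and -0.49 (adjusted p = 0.208). Its X-linked relative Rpl36a read 14.47 and 14.23 (HF), 14.13 and 14.10 (HFGSC) and 14.10 and 13.98 (GSC). Rpl22l1, which can stand in for Rpl22, read 8.26 and 6.11 (HF), 8.07 and 7.91 (HFGSC) and 7.91 and 5.96 (GSC). The replicates of HF and of GSC lay 2.16 and 1.95 apart, further than any group difference, and those of HFGSC 0.16 apart. Rpl22 read 11.37 and 12.03 (HF), 12.45 and 12.95 (HFGSC) and 12.26 and 12.58 (GSC), differences of 1.00 (adjusted p = 0.0804, or 0.00756 with the replicate block) and 0.71 (adjusted p = 0.169, or 0.0244 with the block) from HF. Every germline array of Rpl22 lay above both HF arrays. The brighter Rpl7l1 probe, ILMN_1249606, read between 12.16 and 12.52 on all arrays. The dimmer, ILMN_2661407, read 8.37 and 8.13 (HF), 6.92 and 7.61 (HFGSC) and 7.66 and 7.62 (GSC), and did not pass. The 3 paralog probes that were higher, of Rps4l, Rpl3l and Rpl39l, were detected on no HF array and entered the test through the germline arrays on which they are high, so their number is a description only.

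**Figure D3:**
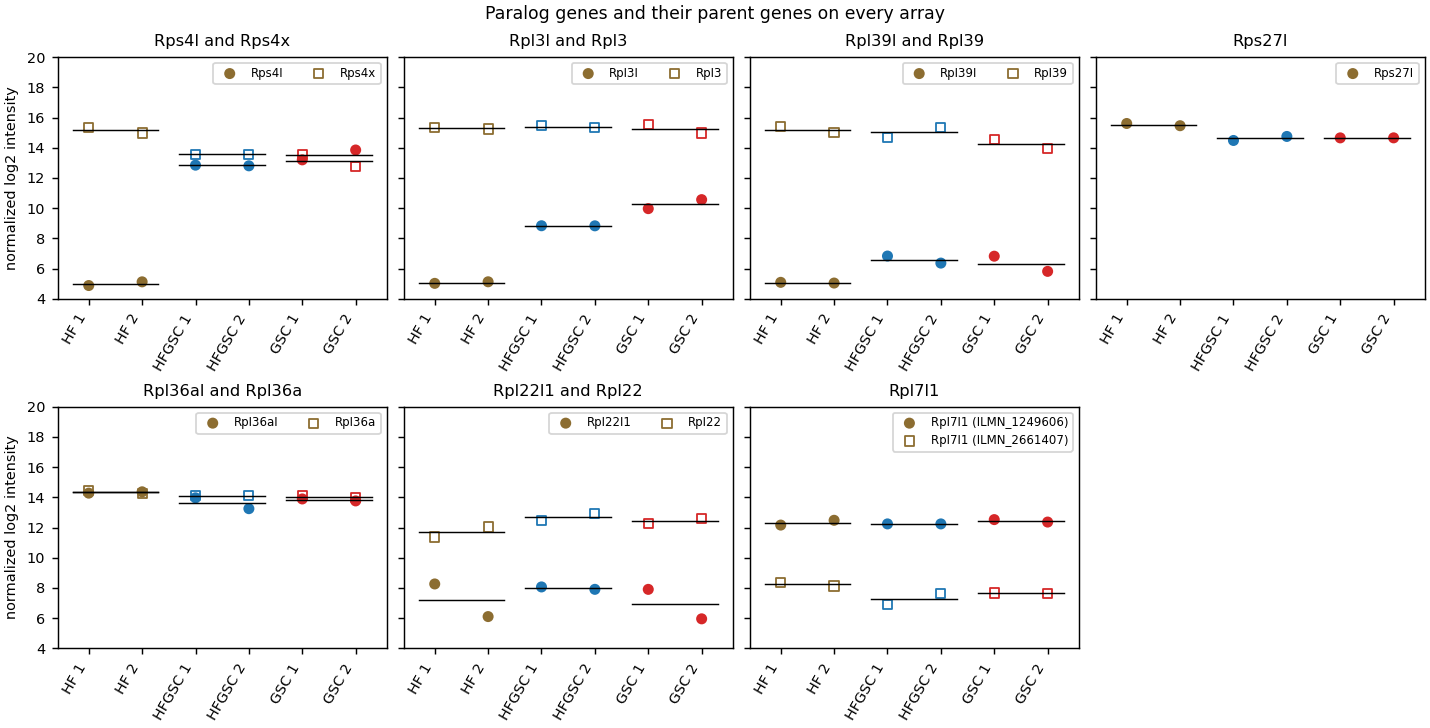
Normalized log2 intensity of paralog genes (filled) and parent genes (open) on each array, coloured by group, with bars at group means; for Rpl7l1 the symbols are its 2 probes, and levels may be compared within a probe only. Rps4l and Rpl3l are near 5 on the HF arrays and above 8.8 on the others, and Rps4x is lower on the 4 germline arrays than on the HF arrays.

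Among the 42 tested probes of the large subunit, 1 was higher and 7 lower in HFGSC against HF (19%, against 22.5% of all probes). GSC against HF had 2 higher and 10 lower (28.6%, against 27.7%). With the replicate block it was 5 and 13, and 3 and 13, where 43.6% and 48.2% of all probes passed. The median differences of the large-subunit probes were -0.05 and -0.13. Rpl24, a protein at the subunit interface, read 11.45 and 11.56 (HF), 12.53 and 12.33 (HFGSC) and 12.88 and 13.28 (GSC). It was 2.98-fold higher in GSC (log2 difference 1.57, SE 0.28, adjusted p = 0.00726). In HFGSC the difference was 0.93 (adjusted p = 0.0536, or 0.0141 with the replicate block). Without GSC replicate 2 the GSC call was lost (adjusted p = 0.0631). Probe ILMN_2946482 of Rpl23 read 15.18 and 14.95 (HF), 16.02 and 15.53 (HFGSC) and 15.96 and 15.92 (GSC). Its log2 difference was 0.71 in HFGSC (adjusted p = 0.0341) and 0.88 in GSC (adjusted p = 0.0137), with the germline arrays close to the highest value of 16.06. The HFGSC call held only without HFGSC replicate 2 (otherwise adjusted p from 0.0582 to 0.183), and the GSC call was lost without HF replicate 2 or either GSC array (0.068 to 0.0834). With median scaling the differences fell to 0.18 (adjusted p = 0.774) and 0.49 (adjusted p = 0.38). Both calls were also lost without the trend, and that in HFGSC with detection required on all 6 arrays and with only the 2 groups fitted. The other bright Rpl23 probe, ILMN_2742807, differed from HF by 0.27 and 0.18 and did not pass.

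Rpl13a, known in human monocytes to leave the ribosome and silence inflammatory messages, was lower in both germline groups. It read 14.20 and 14.41 (HF), 12.32 and 13.11 (HFGSC) and 12.44 and 12.87 (GSC), a decrease of 3.01-fold (log2 difference -1.59, SE 0.32, adjusted p = 0.013) and 3.13-fold (-1.65, SE 0.32, adjusted p = 0.00974). Without either HF array the HFGSC call was lost (adjusted p = 0.0501 and 0.0819), and without HF replicate 2 or GSC replicate 1 the GSC call (0.0615 and 0.0576). Both Rpl30 probes were lower in both groups. ILMN_2878430 of Rpl30 read 12.52 and 12.21 (HF), 10.997 and 10.82 (HFGSC) and 11.25 and 11.35 (GSC), differences of -1.45 (adjusted p = 0.0167) and -1.06 (adjusted p = 0.0425). ILMN_2878424 read 9.13 and 9.46 (HF), 7.05 and 7.30 (HFGSC) and 7.25 and 7.40 (GSC), differences of -2.12 (adjusted p = 0.0185) and -1.97 (adjusted p = 0.0206). The pair agreed in direction. The 2 Rpl30 calls in HFGSC were lost without either HF array or 1 HFGSC array (replicate 2 for ILMN_2878430, replicate 1 for ILMN_2878424), and those in GSC without any 1 HF or GSC array, with adjusted p from 0.0524 to 0.24. The GSC call of ILMN_2878430 was also lost with median scaling, with no filter, with detection on all 6 arrays and without the trend.

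The 3 probes of Rpl21 moved alike, all at low intensity. ILMN_2688863 read 7.97 and 8.13 (HF), 6.57 and 6.84 (HFGSC) and 5.99 and 5.98 (GSC), differences of -1.35 (adjusted p = 0.0418) and -2.06 (adjusted p = 0.00795). ILMN_1222250 read 8.02 and 8.43 (HF), 6.64 and 6.96 (HFGSC) and 6.22 and 6.52 (GSC), differences of -1.42 (adjusted p = 0.0515) and -1.86 (adjusted p = 0.0177). ILMN_1225201 read 8.93 and 9.28 (HF), 7.87 and 7.89 (HFGSC) and 7.23 and 7.34 (GSC), differences of -1.22 (adjusted p = 0.106) and -1.82 (adjusted p = 0.0273). HF was highest and GSC lowest for each probe, and with the replicate block the latter pair passed in HFGSC too (adjusted p = 0.00932 and 0.0203). The HFGSC call of ILMN_2688863 was lost without any 1 of the 6 arrays (adjusted p from 0.0799 to 0.175). In GSC its call was lost without GSC replicate 2 (0.0622), and those of the other Rpl21 probes without any 1 HF or GSC array (0.0629 to 0.189). Median scaling ended the HFGSC call of ILMN_2688863, whose difference became -0.85, and the GSC call of ILMN_1225201, and the former was also lost with no filter and with only the 2 groups fitted.

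Among the 29 tested probes of the small subunit, 0 were higher and 2 lower in HFGSC against HF (Rps4x and Rps24). That is 6.9%, against 22.5% of all probes. GSC against HF had 0 higher and 4 lower (those genes, Rps3 and Rps9), 13.8% against 27.7%. With the replicate block it was 0 and 5, and 1 and 5, where 43.6% and 48.2% of all probes passed. The median differences of the small-subunit probes were -0.03 and -0.05. Rps3, a protein at the messenger RNA entry that also acts in DNA repair, had probes that behaved differently. Its probe ILMN_2594103 read 14.68 and 14.49 (HF), 15.09 and 15.22 (HFGSC) and 12.63 and 11.95 (GSC). Only the GSC arrays were low. This probe was 4.90-fold lower in GSC than in HF (log2 difference -2.29, SE 0.26, adjusted p = 0.00126, held in each of 16 settings) and 7.28-fold higher in HFGSC than in GSC (2.86, SE 0.26, adjusted p = 0.0188), the single member to pass between the germline groups. In HFGSC against HF the difference was 0.57 (adjusted p = 0.156). The call between HFGSC and GSC was lost without any 1 array other than GSC replicate 1 (adjusted p from 0.059 to 0.126), and without the trend. Cldn11, a junction protein and Sertoli cell marker, also passed between the germline groups, at 7.63 and 8.58 (HFGSC) against 5.32 and 5.54 (GSC), adjusted p = 0.048, and the part of such cells in the Rps3 difference was not tested. The second Rps3 probe, ILMN_2637639, read 13.66 and 12.51 (HF), 12.73 and 13.45 (HFGSC) and 13.09 and 12.01 (GSC). Its groups overlapped, and its differences of 0.01, -0.53 and 0.54 did not pass.

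Probes of the same gene gave different answers in some cases. Of 22 genes with several probes 16 had at least 2 tested, and the calls of those probes differed for 6 genes in HFGSC against HF, 7 in GSC against HF and 1 in HFGSC against GSC. The share of such genes over the whole array was not computed, so these counts describe the members only. In 10 genes the brightest probe had a mean of 15 or more and 12 other probes lay below 15. This split was made after the values had been seen. The dimmer probe had the lower difference in 11 of the 12 pairs in HFGSC against HF and in 10 of 12 in GSC against HF. The median difference was 0.16 for the bright and -1.20 for the dimmer probes in HFGSC, and 0.00 and -0.89 in GSC. Of the dimmer probes 4 passed as lower in HFGSC and 5 in GSC, and 0 of the bright probes did. Among all tested probes with a mean of 15 or more, 2.03% were lower in HFGSC and 4.05% in GSC. From 12 to below 15 it was 8.79% and 12.2%, and below 12 it was 9.2% and 12.1%. The bright probes lay near the top of the scale, and the part of that limit in the contrast was not tested.

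Rpl38, a large-subunit protein known for its part in translating Hox messages, shows the contrast. Its probe ILMN_3135931 read 15.97 and 15.93 (HF), 15.99 and 16.01 (HFGSC) and 15.95 and 16.04 (GSC). Its probe ILMN_2594971 read 11.68 and 11.77 (HF), 9.97 and 10.18 (HFGSC) and 9.84 and 10.65 (GSC), differences of -1.64 (adjusted p = 0.0284) and -1.48 (adjusted p = 0.0347). The dimmer probe was lower on each germline array than on both HF arrays, and the bright one differed from HF by 0.05 in both groups. Rps24, a small-subunit protein mutated in some human families with Diamond-Blackfan anaemia, had 3 tested probes. ILMN_3126986 read 15.73 and 15.66 (HF), 15.95 and 15.77 (HFGSC) and 15.94 and 15.74 (GSC). ILMN_2625060 read 11.95 and 11.66 (HF), 10.23 and 10.02 (HFGSC) and 10.59 and 9.999 (GSC), differences of -1.68 (adjusted p = 0.0215) and -1.51 (adjusted p = 0.0268). ILMN_1214875 differed from HF by 0.23 and 0.58 and did not pass. Both calls of Rpl38 and of Rps24 were lost without any 1 array of the groups compared, with adjusted p from 0.0566 to 0.17 for Rpl38 and 0.0524 to 0.159 for Rps24. With no filter on detection both Rpl38 calls and the GSC call of Rps24 were lost, and with detection on all 6 arrays both Rpl38 calls.

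Rpl27a, Rpl29 and Rpl31 showed a like contrast, and for Rps9 both probes lay below HF, the dimmer one further. The dimmer Rpl27a probe, ILMN_2882059, read 12.18 and 11.61 (HF), 9.54 and 10.83 (HFGSC) and 9.82 and 9.23 (GSC), differences of -1.71 (adjusted p = 0.0594, or 0.0242 with the replicate block) and -2.37 (adjusted p = 0.0172). Its brightest probe, ILMN_2641304, read between 15.44 and 15.75 on all arrays, and ILMN_1227653 differed from HF by -0.58 (adjusted p = 0.0572, or 0.00889 with the replicate block) and -0.25. The dimmer Rpl29 probe, ILMN_2730005, read 12.75 and 13.21 (HF), 11.40 and 10.85 (HFGSC) and 11.47 and 11.95 (GSC), differences of -1.85 (adjusted p = 0.0108) and -1.27 (adjusted p = 0.0352), where the brighter ILMN_2857570 differed by -0.15 and -0.17. For Rpl31, which lines the tunnel exit, ILMN_1221124 read 13.38 and 13.23 (HF), 11.60 and 12.35 (HFGSC) and 12.31 and 12.36 (GSC), differences of -1.33 (adjusted p = 0.0236) and -0.98 (adjusted p = 0.0577, or 0.018 with the replicate block). Its other tested probes differed by 0.25 and -0.43 in HFGSC without passing. For Rps9, ILMN_2643092 read 14.68 and 15.03 (HF), 14.01 and 14.26 (HFGSC) and 13.80 and 14.29 (GSC), differences of -0.72 (adjusted p = 0.0682, or 0.00704 with the replicate block) and -0.81 (adjusted p = 0.0407). Its brighter probe, ILMN_1377921, differed by -0.32 and -0.15. These calls too were lost when single arrays were left out, which leaves 1 array in a group. The HFGSC call of Rpl29 was lost without HF replicate 2 (adjusted p = 0.0837), that of Rpl31 without either HF array or HFGSC replicate 1 (0.0824 to 0.124), and the GSC call of Rpl27a without either HF array or GSC replicate 2 (0.0512 to 0.102). The GSC calls of Rpl29 and Rps9 were lost without any 1 HF or GSC array (0.0545 to 0.234), and also with median scaling, no filter, detection on all 6 arrays or no trend; with median scaling Rps9 differed by -1.27. Without the trend the HFGSC call of Rpl31 was lost. Ribosomal protein genes have many processed copies in the mouse genome, and which transcripts each probe reads was not tested.

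**Figure D4:**
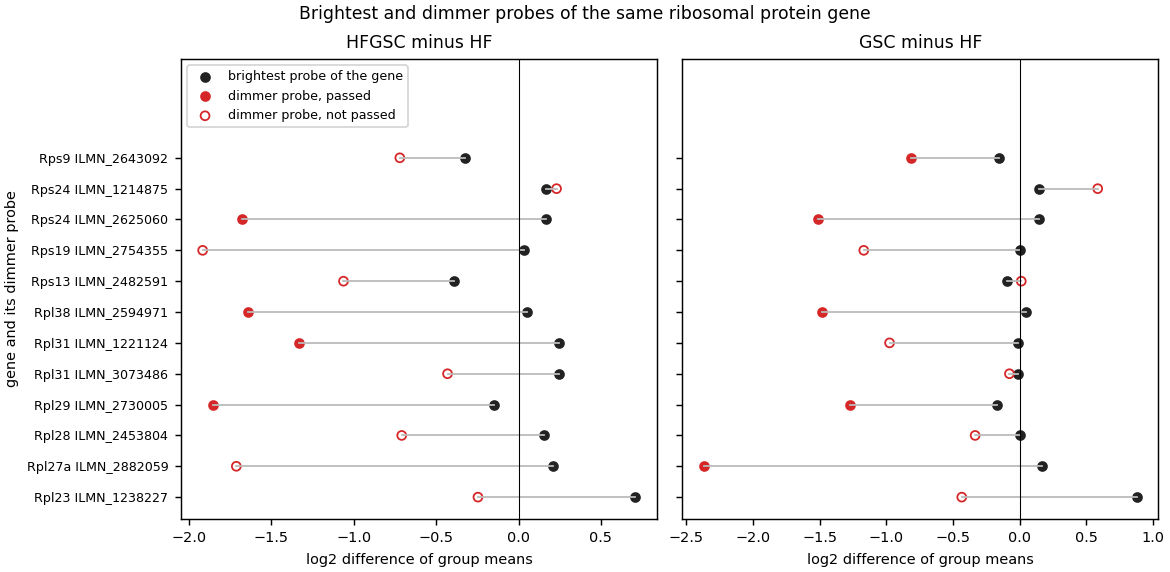
Log2 difference from HF of the brightest probe (black) and of each dimmer probe (red, filled when it passed) of 10 ribosomal protein genes, in HFGSC (left) and GSC (right); each row is 1 pair of probes. In 11 of 12 rows on the left and 10 of 12 on the right the dimmer probe lies to the left of the bright one.

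The median absolute difference between the 2 arrays of a group was 0.17 in HF, 0.20 in HFGSC and 0.21 in GSC for the 80 members, against 0.44, 0.50 and 0.58 for all tested probes, most of which were dimmer. Among probes with a mean of 15 or more it was 0.096, 0.085 and 0.12 for the members and 0.11, 0.17 and 0.15 for all. From 12 to below 15 it was 0.15, 0.34 and 0.32 against 0.25, 0.34 and 0.38, and below 12 it was 0.35, 0.25 and 0.59 against 0.47, 0.54 and 0.61. Bright probes near the top of the scale have little room to differ, and no test compared these distances. There were 3 members in HF, 4 in HFGSC and 7 in GSC whose replicates lay more than 1 apart. Rps3a1 was the clearest, at 11.23 and 8.91 (HF), 10.58 and 9.35 (HFGSC) and 10.85 and 7.87 (GSC), where no difference between groups could be read. The stalk proteins did not pass in any comparison without the block. Rplp0, the base of the stalk, read 11.90 and 11.79 (HF), 12.72 and 12.46 (HFGSC) and 12.08 and 12.02 (GSC), with differences of 0.74 (adjusted p = 0.094, or 0.0222 with the block) and 0.20 from HF. Rps15a, of the small subunit, read 8.99 and 8.997 (HF), 9.78 and 9.33 (HFGSC) and 10.39 and 9.77 (GSC), a difference of 1.08 in GSC that did not pass (adjusted p = 0.126, or 0.0239 with the block).

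Some genes could not be followed. Of the 16 probes that were not tested, 12 were detected on no array and 4 on 1 array. They left 6 genes without a tested probe: Rpl14, Rpl17, Rpl6, Rps20, Rps23 and Rps23rg1. The others were single probes of Rpl23, Rpl27a, Rpl4, Rplp0, Rplp2, Rps24 and Rpsa and a pair for Rpl37, whose genes had another probe that was tested. Of the 6 tested probes not detected on all 6 arrays, Rps4l, Rpl3l, Rpl22l1 and Rpl39l are described above, as is ILMN_2688863 of Rpl21. The last, of Rpsa, read between 6.01 and 6.83.

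Subgroups of the family are set beside the 22.5% of all probes that passed in HFGSC against HF and the 27.7% in GSC against HF. The share was 50% in both for the 8 paralog probes, with the limit given above, and 33.3% and 66.7% for the 3 X-linked probes. Of 14 tested probes of Diamond-Blackfan anaemia genes, 0 were higher and 2 lower in HFGSC (Rpl31 and Rps24) and 0 higher and 1 lower in GSC (Rps24), which is 14.3% and 7.14%, and with the block 4 were lower in each. Of 9 tested probes of exit tunnel genes 1 was lower in each comparison with HF, Rpl31 in HFGSC and Rpl39 in GSC (11.1%), and with the block 1 was higher in each and 2 and 3 lower.

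Other lists of translation genes held smaller shares of calls than all probes in both comparisons with HF, and no test compared the lists. Of 33 tested probes of elongation factors and other TOP messages, 0 were higher and 3 lower in HFGSC against HF, and 0 higher and 4 lower in GSC against HF (9.09% and 12.1%), with median differences of -0.34 and -0.48. Among them Btf3, of the nascent-chain complex, read 14.70 and 14.88 (HF), 13.42 and 13.64 (HFGSC) and 13.64 and 13.64 (GSC) at ILMN_2720034, differences of -1.26 (adjusted p = 0.00463) and -1.15 (adjusted p = 0.00575), while its other probe differed by 0.49 and 0.44 and did not pass. Of 38 probes of initiation factors, 0 were higher and 3 lower in HFGSC, and 3 higher and 3 lower in GSC (7.89% and 15.8%, medians of -0.47 and -0.32). Of 61 probes of ribosome biogenesis factors, 2 were higher and 3 lower in HFGSC, and 3 higher and 2 lower in GSC (8.2% in both, medians of -0.17 and 0.12). Polr1a, the largest subunit of RNA polymerase I, was lower in both at 2 of 4 tested probes, the others differing by -1.02 and -2.37 in HFGSC and -0.24 and -1.24 in GSC without passing. Polr1c, a subunit shared by RNA polymerases I and III, was higher in both, by 2.02 and 1.95. Mitochondrial ribosomal proteins, which serve the separate ribosome of that organelle, had 0 of 108 probes higher in both comparisons, and 6 lower in HFGSC and 8 in GSC (5.56% and 7.41%, medians of -0.31 and -0.29). None of these lists had a probe that passed between HFGSC and GSC.

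The replicate block raised these counts, as it did for all probes, of which 43.6% and 48.2% then passed. Elongation factors and TOP messages had 8 lower in HFGSC and 6 in GSC, and 0 higher. Initiation factors had 2 higher and 16 lower in HFGSC, and 5 and 11 in GSC. Biogenesis factors had 4 higher and 11 lower, and 11 and 6, and mitochondrial ribosomal proteins 3 higher and 25 lower, and 7 and 23.

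Of 19 probes of regulators of ribosomal protein messages, 0 were higher and 3 lower in HFGSC, and 1 was higher and 2 lower in GSC (15.8% in both, or 2 and 5, and 4 and 5, with the block). Mtor, the kinase itself, read at ILMN_2563765 11.64 and 11.69 (HF), 9.44 and 9.41 (HFGSC) and 10.59 and 11.27 (GSC), a difference of -2.24 in HFGSC (adjusted p = 0.00783) and of -0.74 in GSC (adjusted p = 0.207). Its other tested probe, ILMN_2756460, went the other way, by 0.56 in HFGSC (adjusted p = 0.319) and 1.01 in GSC (adjusted p = 0.0848, or 0.0192 with the block). Eif4ebp1, a translation repressor that mTOR inactivates, differed by -1.35 (adjusted p = 0.0137) and -1.26 (adjusted p = 0.0149). Myc, an activator of ribosome synthesis, read 8.17 and 8.76 (HF), 5.14 and 6.88 (HFGSC) and 5.28 and 5.34 (GSC), with adjusted p of 0.0236 and 0.00818, and was detected on 3 arrays. Of 15 probes of 10 proliferation genes, 0 were higher and 7 lower in HFGSC (46.7%, against 22.5% of all probes), and 2 higher and 6 lower in GSC (53.3%, against 27.7%). Their summed intensity was 64384 to 69045 in HF, 31546 to 44361 in HFGSC and 51223 to 64844 in GSC. The part of proliferation in the ribosomal protein results was not tested. The genes of the 5S particle (Rpl5 and Rpl11) were not analysed here.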

How the data were processed

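Per the labels' protocols, total RNA was amplified into biotin-labelled cRNA for Illumina bead arrays. Per the file headers, the deposited table gives for each probe and array a linear intensity and a detection p-value. The authors also deposited a table of log2 values whose columns share 1 distribution, as quantile normalization gives, and this served as an alternative. The submitters' processing notes name GenomeStudio 2011.1 and R 3.0.2.

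Intensities went through neqc in limma 3.58.1 and R 4.3.3, which removes background by way of the detection p-values, adds an offset of 16, quantile normalizes and takes log2. The 19715 probes that passed the detection filter were fitted over all 6 arrays (3 residual degrees of freedom) with eBayes and an intensity trend, and Benjamini-Hochberg adjustment ran over all of them at a threshold of 0.05. With 2 arrays a group an exact two-sided test cannot go below 0.333, and the number of arrays limits the precision. A fold against a group without detection is a lower bound. Its denominator averages, over that group's arrays, whichever is larger of the probe's signal and the weakest detected signal. The fit was tested on simulated data with 200 changed probes.

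The platform annotation gave 1 symbol to 34885 probes, several to 18 and none to 10378. RefSeq (GRCm38.p6) matched 34807 by Entrez identifier and changed 0 symbols. The members, lists, alternatives and the rule for named genes were chosen with earlier results of these data known. Named were members that passed, paralogs and parents, genes whose probes disagreed, and up to 4 genes per other list with the smallest adjusted p. Others, such as Rps29, Rplp0, Rps15a and Rps3a1, were chosen after their values were seen.

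The differences of replicate 1 from replicate 2 correlated across all tested probes: r was 0.45 for HF with HFGSC, 0.77 for HF with GSC and 0.57 for HFGSC with GSC. Over the 80 members r was 0.23, 0.82 and 0.38 in the same order. The labels tie these numbers to nothing and a group yields only 1 such difference, so pairing is an assumption. Results come from the fit without the block, and the blocked value is given for members where it changes a call. Lists whose count it moves by over 1.5 times have blocked counts too, except the paralog, parent, proliferation and cell marker lists. Blocked counts were not computed for brightness classes and probe pairs.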

Additional observations from a re-analysis of the deposited data

Results flagged for a closer look

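The Rps3 probe ILMN_2594103 differed between the 2 kinds of germline stem cell, tested as the difference itself. It lay 2.86 log2 units higher in HFGSC than in GSC (limma adjusted p = 0.0188), and both HFGSC arrays lay above both GSC arrays. The other Rps3 probe, ILMN_2637639, differed by 0.54 (adjusted p = 0.933), and which transcripts the probes read was not tested.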

How the results depend on the processing

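Values are for ribosomal protein probes, then all tested probes. In HFGSC against HF, 4 members and 2637 probes were higher, and 10 members and 1795 probes lower. Median scaling gave 2 higher members and a median of -0.48. Requiring detection on all 6 arrays, which drops probes at background in HF, gave 0 higher members of 74 tested, 486 probes higher and 675 lower. With 1 probe per gene (the brightest), and so fewer tested, 5 of 59 members were higher and 4 lower. The members' median was then 0.05, where all probes had 0.05, and 1873 probes were higher and 1023 lower. Without the mean-variance trend 2 members were higher. The replicate block gave 8 higher and 20 lower members, 4375 probes higher and 4228 lower. Leaving out 1 array in turn gave 2 to 4 higher and 2 to 9 lower members, 1220 to 2409 probes higher and 757 to 1767 lower.

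In GSC against HF, 5 members and 3089 probes were higher, and 15 members and 2371 probes lower. Median scaling gave 3 higher members and a median of -0.42, no filter on detection 9 lower members, and no trend 3 higher members. Detection on all 6 arrays gave 2 higher and 9 lower members, 712 probes higher and 1063 lower. With 1 probe per gene, 5 members were higher and 7 lower, and 2127 probes were higher and 1374 lower. The members' median was then -0.02, where all probes had 0.07. The replicate block gave 4935 probes higher and 4574 lower. Leaving out 1 array gave 3 to 5 higher and 4 to 16 lower members, 1448 to 3269 probes higher and 811 to 2622 lower.

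In HFGSC against GSC, 1 member and 26 probes were higher and 38 probes lower. Higher and lower probes became 16 higher with an offset of 50, 8 and 13 with no filter, 2 and 0 with detection on all 6 arrays, 7 and 12 (0 members) without the trend, 116 and 123 with the replicate block, and 11 and 10 with only the compared groups fitted. Leaving out 1 array gave 0 to 1 higher members, 0 to 2 probes higher and 0 to 22 lower. Beyond what the settings' own construction shows, the cause was not tested.

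Over the 80 member probes and these settings, 3587 values stayed on the same side of the threshold, 133 no longer passed and 37 newly passed. Of the 35 calls 0 reversed direction. Differences that did not pass could change sign: the members' median in HFGSC against GSC went from 0.01 to -0.11 with median scaling. Of the 35 calls, 6 held in every setting run for them and the others were lost without some 1 array, where calls over all tested probes mostly fell as well. With all 6 arrays, 12 calls were lost without the trend, 10 with no filter, 9 with median scaling, 7 with detection on all 6 arrays, 2 with only the compared groups fitted and 1 with an offset of 50. The block ended no member's call and added 14 in HFGSC against HF and 6 in GSC against HF. Having 2 arrays per group and, for probes near background or near 16.06, the range of the signal limits what can be seen.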
